A study of Mus musculus with 12 samples.

Results

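In bone marrow of mice with MLL-ENL leukemia, 20 of the 24028 genes measured were near 0 in normal stem and progenitor cells and present in every leukemic library. They were chosen by their measured levels: at most 1 CPM (a gene's read count relative to the total of its library) in each of 3 normal libraries and at least 5 CPM in each of 9 leukemic libraries. Taken alone, the first limit held for 10433 genes and the second for 8114. The rule also leaves out 10 neutrophil granule genes, of which 0 met both limits. The difference between normal and leukemic libraries is therefore how the genes were picked, and it is given below as a description with no test. Of the 20 genes, 17 encode proteins and 3 are annotated as long noncoding RNAs.

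The normal group, wtLSK, came from C57BL/6 control mice and held marrow cells without lineage markers that were sorted on c-Kit and Sca-1, which selects blood stem cells and early progenitors. The leukemic mice were of the same strain and carried an MLL-ENL knock-in that doxycycline switches on (iMLL-ENL), and they received doxycycline until acute leukemia developed. Their cells came from total marrow (iMLL-ENL) or from separate sorts for high or low B220 (B220High, B220Low), a form of the surface protein CD45 that B cells carry. Each of the 4 groups had 3 libraries, and 3 animals were used per genotype. The labels state doxycycline only for the leukemic mice, name no promoter for the knock-in, and do not tie a library to an animal. The p-values below thus measure the spread between libraries. Genotype, doxycycline, disease and the sort all differ between wtLSK and the leukemic groups and cannot be told apart. In bulk RNA, a change in the number of cells of one type cannot be told apart from a change in the RNA of each cell.

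MLL-ENL is a leukemia fusion in which a chromatin regulator, MLL, is joined to ENL, a protein of the complexes that release paused RNA polymerase. Such leukemias hold immature cells with myeloid features and can show lymphoid markers as well. LSK cells, in contrast, express few genes of mature myeloid cells.

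Library totals ran from 10921521 to 22706882 counts. Against its markers, the wtLSK group carried Kit at 1050 to 1350 CPM, and 10 stem and progenitor genes together stood at 3755 to 4287 CPM, against 288 to 522 in iMLL-ENL. In B220High, 9 B lineage genes together stood at 10.4, 88.2 and 13.9 CPM, against 13.2, 15.1 and 17.1 in B220Low. B220High was thus above B220Low at number 2 alone. The second wtLSK library stood apart from the other two: it was highest for monocyte genes (554 CPM in sum against 269 and 284), B lineage genes (216 against 47.2 and 44.4) and the granule gene Ngp (31.4 against 3.22 and 2.55).

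None of the 20 genes was without reads in normal cells. Their counts over the 3 wtLSK libraries together ran from 3 (BC018473 and Dnmt3l) to 50 (Gm12709), and 9 genes had 0 counts in at least 1 wtLSK library. "Absent" thus means at or below 1 CPM, and for several genes the few reads came from 1 library. All 11 Stfa1 reads and all 13 Stfa2l1 reads came from the first wtLSK library, all 6 BB031773 reads from the second, and 14 of 17 Msr1 reads from the second as well. Without wtLSK replicate 2 the rule would take 39 genes instead of 20, among them Cd14, Clec5a and C5ar1.

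**Figure D1:**
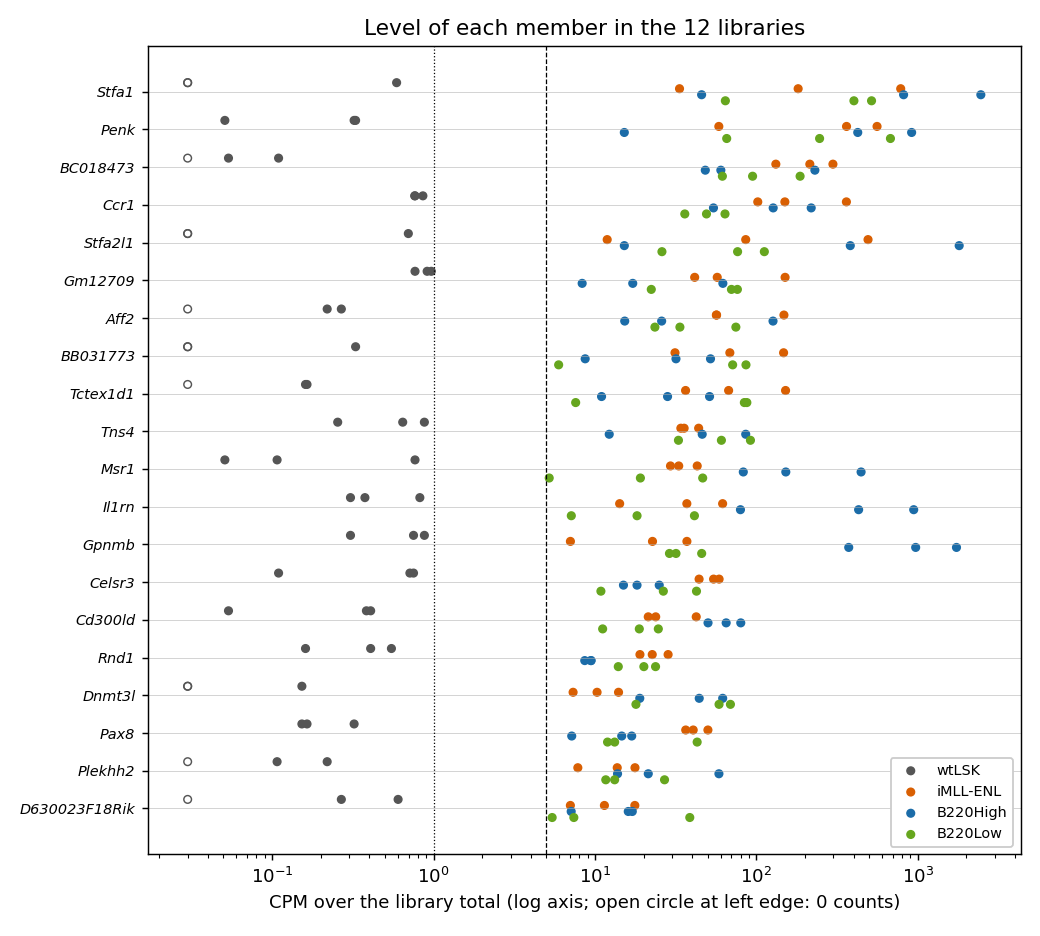
Level of each of the 20 genes (rows) in the 12 libraries, in CPM on a log axis, with 1 point per library coloured by group and an open circle at the left edge for 0 counts. The dotted line marks 1 CPM and the dashed line 5 CPM; the 9 leukemic points of a gene span from 3.28-fold (Rnd1) to 246-fold (Gpnmb).

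The 20 genes varied more among the leukemic libraries than most expressed genes did. The ratio of the highest to the lowest of the 9 leukemic libraries had a median of 9.86 over the 20 genes, against 3.04 over the 8114 genes at 5 CPM or more in each leukemic library. It was largest for Gpnmb (246), Stfa2l1 (151), Il1rn (132) and Msr1 (85.5), and smallest for Rnd1 (3.28) and Celsr3 (5.397). Level also differed widely between genes once gene length was taken into account. Per kilobase of the deposited gene width, the median over the 9 leukemic libraries was 961 CPM per kb for Stfa1, 227 for Penk and 207 for Stfa2l1, and it fell to 2.29 for Celsr3 and 1.80 for Plekhh2.

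**Figure D2:**
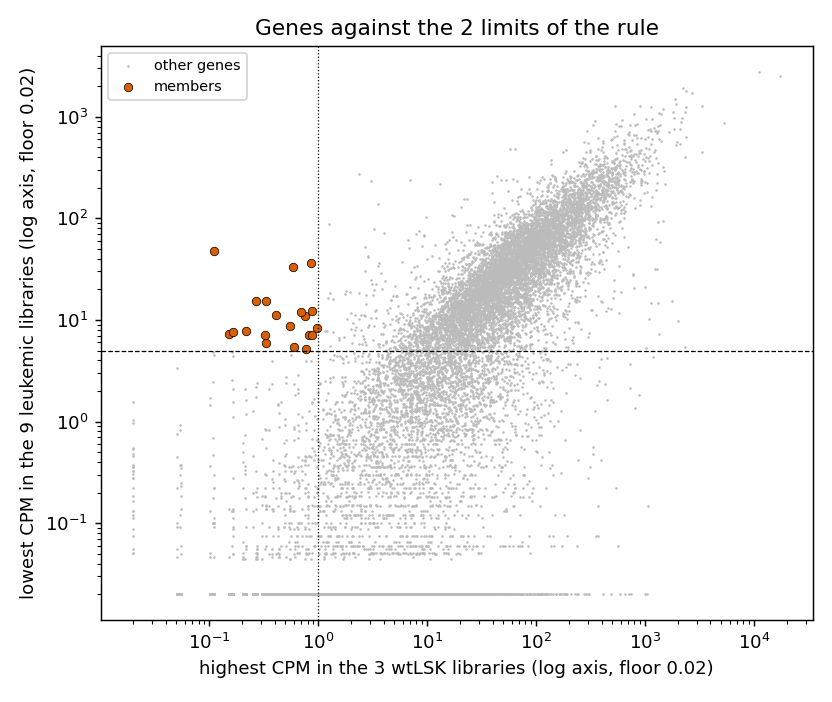
Each gene's highest CPM in the 3 wtLSK libraries (horizontal) against its lowest CPM in the 9 leukemic libraries (vertical), both on log axes with values under 0.02 drawn at 0.02. The 20 genes (orange) fill the corner left of the dotted line at 1 CPM and above the dashed line at 5 CPM, and several lie close to one of the lines.

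Several genes sat close to a limit. Just inside the wtLSK limit were Gm12709 (highest wtLSK library 0.969 CPM), Tns4 (0.878) and Gpnmb (0.878), and just outside it were Nostrin (1.15), Tnnt1 (1.21) and Stfa3 (1.24). Just inside the leukemic limit were Msr1 (lowest leukemic library 5.21 CPM), D630023F18Rik (5.43) and BB031773 (5.96), with Snhg11 (4.89), 4930455G09Rik (4.84) and Mgll (4.50) just outside. The edge of the group is therefore not a gap in the data.

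The rule treats B220High and B220Low alike, so the difference between these sorts is a measure it did not fix. Most of the 20 genes had overlapping levels in the 2 sorts. Gpnmb, Il1rn, Msr1 and Cd300ld, all known from macrophages or other myeloid cells, were higher in every B220High library than in any B220Low library, 4 of 20 genes where 4.74% of the 8114 expressed genes were. Rnd1 was lower in every B220High library, 1 of 20 against 9.19%. edgeR's quasi-likelihood test with Benjamini-Hochberg adjustment called 0 of the 20 genes and 0 of all 12564 tested (0%) at an adjusted p under 0.05. At an unadjusted p under 0.05 it took 5 of the 20 genes (Gpnmb, Cd300ld, Il1rn, Msr1 and Ccr1, all higher in B220High) and 880 of all genes (7%), or 6.17% of the 8401 genes at 5 CPM or more in all 6 sorted libraries. Libraries with the same replicate number deviated together across the sorts, and with that number as a block edgeR called 79 genes (0.629%), 73 of them higher (0.581%) and 6 lower (0.0478%). Among the 20, Il1rn and Gpnmb were called higher and 0 lower. Among the genes at 5 CPM or more in all 6 libraries, 0.464% were called higher with the block. DESeq2 called 232 genes (1.85%), with Gpnmb, Il1rn and Cd300ld among them, and limma-voom called 0.

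Across the 20 genes the median log2 change between the sorts was 0.22, with 11 changes above 0 and 9 below, against -0.03 over all genes tested. With the replicate block it was -0.07, against -0.02 over all genes. B220High was above B220Low at every replicate number for 6 of the 20 (Ccr1, Msr1, Il1rn, Gpnmb, Cd300ld and Plekhh2), where 13.3% of the 8114 genes were, and below at every number for Gm12709 and Rnd1, where 25.2% were.

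**Figure D3:**
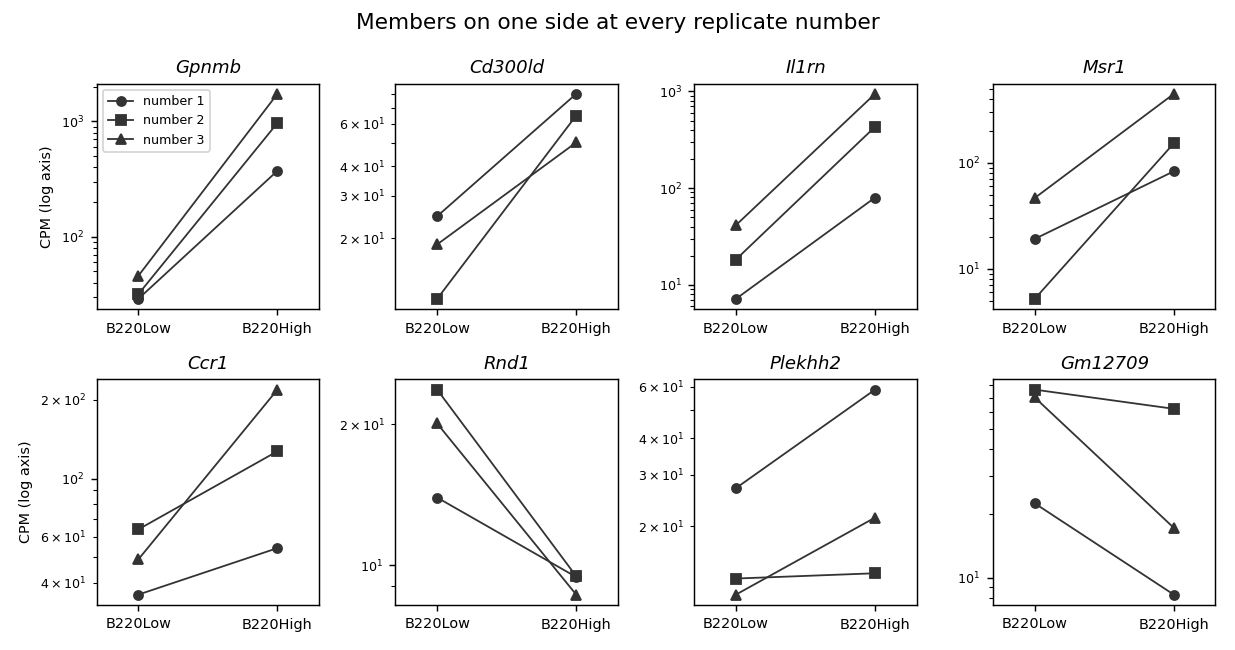
CPM (log axes, scaled separately for each panel) in B220Low and B220High for the 8 genes that lay on one side at every replicate number, with a line joining libraries of the same number. The 3 Gpnmb lines climb from 28.9 to 45.8 CPM up to 373 to 1735 CPM, while the Rnd1 lines fall from 13.9 to 23.7 CPM down to 8.65 to 9.47 CPM.

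Il1rn encodes the interleukin 1 receptor antagonist, a secreted protein that occupies the interleukin 1 receptor without activating it. It lies on chromosome 2 (24336860 to 24351491, GRCm38.p6). Its levels were 0.376, 0.823 and 0.306 CPM in the wtLSK libraries, 14.2, 61.8 and 37.1 in iMLL-ENL, 79.7, 429.8 and 943 in B220High and 7.14, 18.2 and 41.3 in B220Low. Each B220High library was 11.2 to 23.6 times the B220Low library of the same number, and the sorts did not overlap. The log2 difference was 4.52 (SE 1.09, edgeR adjusted p = 0.377), and 4.25 with the replicate block (SE 0.26, adjusted p = 0.000392), where it ranked 2 of 12564 genes by p. Over the other settings its adjusted p ran from 0.00600 (DESeq2) to 0.942 (without B220Low replicate 2), and without B220High replicate 1 it was 0.0294.

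Against wtLSK, the gene of the receptor it blocks was lower in iMLL-ENL. Il1r1, which encodes the signalling receptor of interleukin 1, fell from 176 ± 13.5 CPM in wtLSK to 4.11 ± 1.16 in iMLL-ENL (SD, n = 3; log2 change -5.28, SE 0.28, edgeR adjusted p = 1.43e-05). Between the sorts Il1r1 went in the direction of Il1rn in its mean, at 7.69, 47.0 and 8.85 CPM in B220High and 0.655, 1.04 and 8.90 in B220Low, with overlap and no call (log2 difference 2.58, SE 1.17, edgeR adjusted p = 0.724; 3.11 and 0.342 with the block). Of the 12 other interleukin 1 family and receptor genes tested, 3 were called higher and 4 lower in iMLL-ENL, with a median log2 change of -0.03 where the background was 15.5% of 13811 genes higher and 15.1% lower. The ligand gene Il1b was among those higher (edgeR adjusted p = 0.0246), at 2.18, 4.22 and 47.7 CPM in iMLL-ENL.

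Gpnmb encodes a transmembrane glycoprotein of macrophages, osteoclasts and melanocytes, also called osteoactivin. It lies on chromosome 6 (49036518 to 49058182). Gpnmb stood at 0.752, 0.878 and 0.306 CPM in wtLSK, 37.1, 22.7 and 7.05 in iMLL-ENL, 373, 969.7 and 1735 in B220High and 28.9, 31.8 and 45.8 in B220Low. The lowest B220High library was thus above every other library of the study. The log2 difference between the sorts was 4.94 (SE 0.62, edgeR adjusted p = 0.107), and 4.68 with the replicate block (SE 0.34, adjusted p = 0.00283). Over the other settings its adjusted p ran from 1.13e-19 (DESeq2) to 0.373 (without B220Low replicate 2), and it was 0.00747 without B220High replicate 1. Pmel, the related melanosome protein gene, stood at 2.03 to 4.72 CPM in iMLL-ENL and 1.58 to 2.96 in wtLSK. Between the sorts the median log2 difference of Gpnmb and Pmel was 3.11. Pmel was thus higher in B220High as well, by less than Gpnmb and with no call in the fit with the block.

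Msr1 encodes the class A macrophage scavenger receptor, which takes up modified lipoproteins (chromosome 8, 39543232 to 39642750). Its levels were 0.107, 0.768 and 0.0510 CPM in wtLSK, 29.4, 43.0 and 33.0 in iMLL-ENL, 83.0, 152 and 445 in B220High and 19.1, 5.21 and 46.5 in B220Low. The sorts did not overlap, with a log2 difference of 3.35 (SE 0.95, edgeR adjusted p = 0.457; 3.41, SE 0.55 and adjusted p = 0.0846 with the block). Among 11 other scavenger receptors tested, 4 were called higher and 3 lower in iMLL-ENL, where 15.5% and 15.1% of all 13811 genes were. Olr1, an oxidized lipoprotein receptor gene, missed the wtLSK limit with 0.483, 1.65 and 2.40 CPM and reached 275 to 819 CPM in the 9 leukemic libraries.

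Cd300ld encodes an immunoglobulin-like activating receptor of myeloid cells (chromosome 11, 114982443 to 114989886). It stood at 0.0537, 0.384 and 0.408 CPM in wtLSK, 42.4, 21.4 and 23.8 in iMLL-ENL, 80.0, 65.0 and 50.2 in B220High and 24.7, 11.2 and 18.8 in B220Low. Every B220High library was above every other library. The log2 difference between the sorts was 1.88 (SE 0.37, edgeR adjusted p = 0.213), and 1.92 with the block (SE 0.35, adjusted p = 0.0559). Of the 6 other Cd300 genes tested, 4 were called higher in iMLL-ENL and 0 lower, where 15.5% and 15.1% of all 13811 genes were. Cd300lf rose from 0.253 ± 0.354 to 10.03 ± 6.64 CPM and Cd300c2 from 0.818 ± 0.58 to 14.99 ± 2.80 CPM (SD, n = 3; edgeR adjusted p = 0.00592 and 0.00119).

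Ccr1 encodes a receptor for inflammatory chemokines such as CCL3 and CCL5, used by monocytes and neutrophils (chromosome 9, 123962126 to 123968692). Its wtLSK levels lay close together at 0.859, 0.768 and 0.765 CPM, against 102, 150.1 and 361 in iMLL-ENL, 54.2, 127 and 218 in B220High and 36.0, 63.9 and 49.1 in B220Low. B220High was higher at each number, by 1.505 to 4.45 times, but the sorts overlapped (log2 difference 1.51, SE 0.52, edgeR adjusted p = 0.585; 1.29, SE 0.32 and adjusted p = 0.157 with the block). Of the 7 other chemokine receptors listed from its chromosome 9 cluster that were tested, Ccr2 was called higher in iMLL-ENL (37.2 ± 24.4 to 469 ± 148 CPM, SD, n = 3, edgeR adjusted p = 0.00103) and Ccr9 lower (edgeR adjusted p = 0.0495).

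The sorts also differed in markers of other cells, and the part of these cells in the differences above was not tested. Of 13 monocyte and macrophage genes tested, 2 were called higher in B220High with the block (Adgre1 and Cd14), and the 14 listed genes summed to 1098 to 5809 CPM in B220High and 653 to 1271 in B220Low. Lyz2 was the largest gene of the B220High sums, at 453.5, 1965 and 4264 CPM. Ly6c2 was lower in B220High at each number, at 32.2, 212 and 55.1 CPM against 106, 291 and 115. With the block, Ly6c2 and Vcam1 had log2 changes of -1.02 and -2.75 without a call. The other listed monocyte and macrophage genes had higher means in B220High. Conventional dendritic cell genes summed to 245 to 3568 CPM against 38.5 to 63.1, with 0 of 6 tested called. Most of that B220High sum was Cd74, H2-Aa and H2-Ab1, at means of 674, 339 and 303 CPM against 9.31, 1.61 and 35.3 in B220Low. Itgax, Flt3 and Zbtb46 also had higher means in B220High, at 27.7, 6.54 and 2.54 CPM against 1.35, 1.92 and 0.234. Xcr1 had a lower mean (0.514 against 2.885 CPM), and Clec9a and Cd209a had means under 1 CPM in both sorts. Mast cell and basophil genes summed to 91.9 to 1299 CPM against 42.6 to 129, with 1 of 4 called (Cpa3), while 2 of the 8 listed were at 0 in all B220High libraries. Eosinophil genes summed to 35.5 to 122 CPM against 14.5 to 47.2, and 2 of 3 tested were called higher with the block (Prg2 and Epx, edgeR adjusted p = 0.00622 and 0.0199). The other gene tested, Siglecf, went the opposite way without a call, at a mean of 12.9 CPM in B220High and 25.7 in B220Low (log2 change -1.07 with the block). At number 2 the eosinophil sum was lower in B220High, at 35.5 against 47.2 CPM. Megakaryocyte and platelet genes summed to 34.6 to 66.8 CPM against 4.45 to 9.89, and stem and progenitor genes to 447 to 515 against 193 to 309. Neither of these sums overlapped between the sorts, and 0 of the 6 and 0 of the 9 tested were called. In the stem and progenitor list, the largest gene was Meis1 in B220High library 1 (254 CPM), Ly6a in library 2 (285) and Cd34 in library 3 (289). Kit went the opposite way to the sum at each number, at 41.8, 40.3 and 7.28 CPM in B220High and 53.3, 61.8 and 9.56 in B220Low. The other listed stem and progenitor genes had higher means in B220High. Primary granule genes went the other way, with 4 of 8 called lower in B220High with the block and sums of 2994 to 3701 CPM against 3048 to 9474. Plasmacytoid dendritic cell genes overlapped in sum, at 228, 588 and 414.5 CPM in B220High and 238, 185 and 339 in B220Low, with 0 of 5 called. On that list Siglech and Ly6d stood at 66.7 and 58.9 CPM in B220High library 2 and at most 2.02 CPM in the other sorted libraries. Cox6a2 had a lower mean in B220High (2.80 against 5.38 CPM).

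Promoters of Gpnmb, Il1rn, Cd300ld, Ccr1 and Plekhh2 are shown because these genes, like Msr1, were higher in B220High at every replicate number. The 250 bases before the RefSeq start (GRCm38.p6) are printed 5′ to 3′ on the gene's strand. Capitals mark matches, on either strand, to the RUNX motif TGTGGT, the PU.1 motif GAGGAAGT or the TATA box TATAAA. The windows are Gpnmb at chr6:49036268-49036517, plus strand, Il1rn at chr2:24336610-24336859, plus strand (the first of 3 annotated starts), Cd300ld at chr11:114989887-114990136, minus strand, Ccr1 at chr9:123968693-123968942, minus strand, and Plekhh2 at chr17:84511645-84511894, plus strand.
Gpnmb: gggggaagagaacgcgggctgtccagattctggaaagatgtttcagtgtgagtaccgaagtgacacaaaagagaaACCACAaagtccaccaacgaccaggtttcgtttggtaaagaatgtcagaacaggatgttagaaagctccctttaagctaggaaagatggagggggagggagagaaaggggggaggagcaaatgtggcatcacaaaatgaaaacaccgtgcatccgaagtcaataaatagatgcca
Il1rn: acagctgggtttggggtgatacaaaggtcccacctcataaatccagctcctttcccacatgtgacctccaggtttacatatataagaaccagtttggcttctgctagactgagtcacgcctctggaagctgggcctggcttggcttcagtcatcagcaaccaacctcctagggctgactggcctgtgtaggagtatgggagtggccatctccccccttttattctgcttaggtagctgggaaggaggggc
Cd300ld: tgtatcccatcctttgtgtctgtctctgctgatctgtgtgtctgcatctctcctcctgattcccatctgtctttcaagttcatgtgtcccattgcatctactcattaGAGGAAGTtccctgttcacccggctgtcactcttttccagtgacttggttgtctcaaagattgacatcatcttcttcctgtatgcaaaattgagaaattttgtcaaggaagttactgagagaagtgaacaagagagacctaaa
Ccr1: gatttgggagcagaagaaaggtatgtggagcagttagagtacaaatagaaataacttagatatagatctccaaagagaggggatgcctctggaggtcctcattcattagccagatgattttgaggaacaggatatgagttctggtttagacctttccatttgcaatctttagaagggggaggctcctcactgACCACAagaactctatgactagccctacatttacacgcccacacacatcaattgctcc
Plekhh2: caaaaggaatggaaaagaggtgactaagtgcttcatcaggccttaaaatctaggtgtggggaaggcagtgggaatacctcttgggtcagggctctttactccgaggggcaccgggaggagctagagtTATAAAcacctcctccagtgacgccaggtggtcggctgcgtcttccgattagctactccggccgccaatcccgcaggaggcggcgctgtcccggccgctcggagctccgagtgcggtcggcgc
RUNX matches stood in the windows of Gpnmb and Ccr1, a PU.1 match in that of Cd300ld and a TATA box match in that of Plekhh2, and the Il1rn window held no match to the motifs searched.

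Promoter windows of 300 bases (250 before to 50 after a start) were found for 15 of the 20 genes, 19 windows in all. The RUNX motif TGTGGT was in 26.3% of these windows and in 16.8% of all 32851 windows, and the C/EBP motif TTGCNNAA in 10.5% and 10.8%. GAGGAAGT was in 5.26% and 3.20%, the related ETS motif CCGGAAGT, which shares its last 6 letters, in 0% and 3.89%, and the HOX-MEIS motif TGATTNAT in 0% and 3.22%. The GATA motif AGATAA was in 5.26% and 11.2%, and TATAAA in 10.5% and 13.6%. Few of the windows were rich in CpG: 2 of 19 (10.5%, those of Celsr3 and Plekhh2) had an observed over expected CpG ratio of 0.6 or more, against 35.8% of all windows. These shares are descriptions of 19 windows, and a match is not evidence of binding.

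Stfa1 and Stfa2l1 encode stefin A proteins, small inhibitors of cysteine proteases such as cathepsins that neutrophils and their precursors make in quantity. They lie 115199 bases apart in the stefin A cluster on chromosome 16 (Stfa1 36277148 to 36285371, Stfa2l1 36156811 to 36161948). Stfa1 stood at 0.591, 0 and 0 CPM in wtLSK, 33.4, 783 and 181 in iMLL-ENL, 45.8, 2456 and 816 in B220High and 64.2, 517 and 402 in B220Low. Stfa2l1 stood at 0.698, 0 and 0 CPM in wtLSK, 11.9, 491 and 85.9 in iMLL-ENL, 15.2, 1803 and 382 in B220High and 26.0, 76.5 and 112 in B220Low. Both genes were lowest in library 1 of each leukemic group, and the sorts overlapped for both. The log2 difference between B220High and B220Low was 1.80 for Stfa1 (SE 1.31, edgeR adjusted p = 0.873) and 3.41 for Stfa2l1 (SE 1.47, adjusted p = 0.724). These values rested on B220High library 2: without B220High replicate 2 they were 0.52 and 1.60, and with the replicate block 0.99 and 1.92. Stfa1 was 1.36 to 6.76 times Stfa2l1 across the 9 leukemic libraries.

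Their promoters are shown because the genes are neighbours that were both lowest in library 1 of each leukemic group. Both are read on the plus strand, Stfa1 at chr16:36276898-36277147, plus strand, and Stfa2l1 at chr16:36156561-36156810, plus strand, and capitals mark matches to the RUNX, C/EBP and GATA motifs spelled out above, on either strand.
Stfa1: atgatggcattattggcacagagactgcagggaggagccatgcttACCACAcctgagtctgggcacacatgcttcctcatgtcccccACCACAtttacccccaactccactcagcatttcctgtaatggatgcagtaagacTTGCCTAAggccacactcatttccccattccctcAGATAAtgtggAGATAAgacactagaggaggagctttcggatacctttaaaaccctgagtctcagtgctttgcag
Stfa2l1: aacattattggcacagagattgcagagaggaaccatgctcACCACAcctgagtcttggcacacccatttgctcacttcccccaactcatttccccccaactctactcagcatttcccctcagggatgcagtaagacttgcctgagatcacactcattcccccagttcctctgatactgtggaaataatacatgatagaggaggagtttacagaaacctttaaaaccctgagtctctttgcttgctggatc
A RUNX match stood in both windows, and the C/EBP and GATA matches stood in that of Stfa1 alone.

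Several other genes of the cluster had a like profile but failed the rule, and not all by small margins. Csta2, Cstdc6 and Csta3 met the wtLSK limit and failed the leukemic limit, with lowest leukemic libraries of 2.085, 0.695 and 0.371 CPM. Csta1 did not share the profile, at 0 to 4.39 CPM in the leukemic libraries. Stfa3, Cstdc5, Stfa2 and Cstdc4 exceeded 1 CPM only in the first wtLSK library, at 1.24, 1.29, 1.56 and 2.69 CPM. Stfa2 then stood at 9.59, 624 and 104 CPM in iMLL-ENL and Stfa3 at 16.5, 804 and 261. edgeR called all 4 higher in iMLL-ENL (adjusted p from 0.00966 to 0.0186, n = 3 per group), but without wtLSK replicate 3 these calls were lost (adjusted p from 0.0515 to 0.0876), and that of Stfa2 also without iMLL-ENL replicate 2 (0.0579). The 4 are named here for low wtLSK and high leukemic levels, the same contrast that these calls test. The calls are therefore no separate support. Of the granule genes that the rule leaves out, Ngp, Lcn2, Ltf and Camp were highest in the second wtLSK library (31.4, 17.1, 8.23 and 6.47 CPM), in which these stefin genes had 0 counts. Transcripts of these genes are close copies. The longest annotated transcripts of Stfa2 and Stfa2l1 were 96.5% identical over 367 aligned bases, and those of Stfa1 and Stfa2l1 81.4% over 349, so reads may be split between the genes, and the level of each is uncertain.

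**Figure D4:**
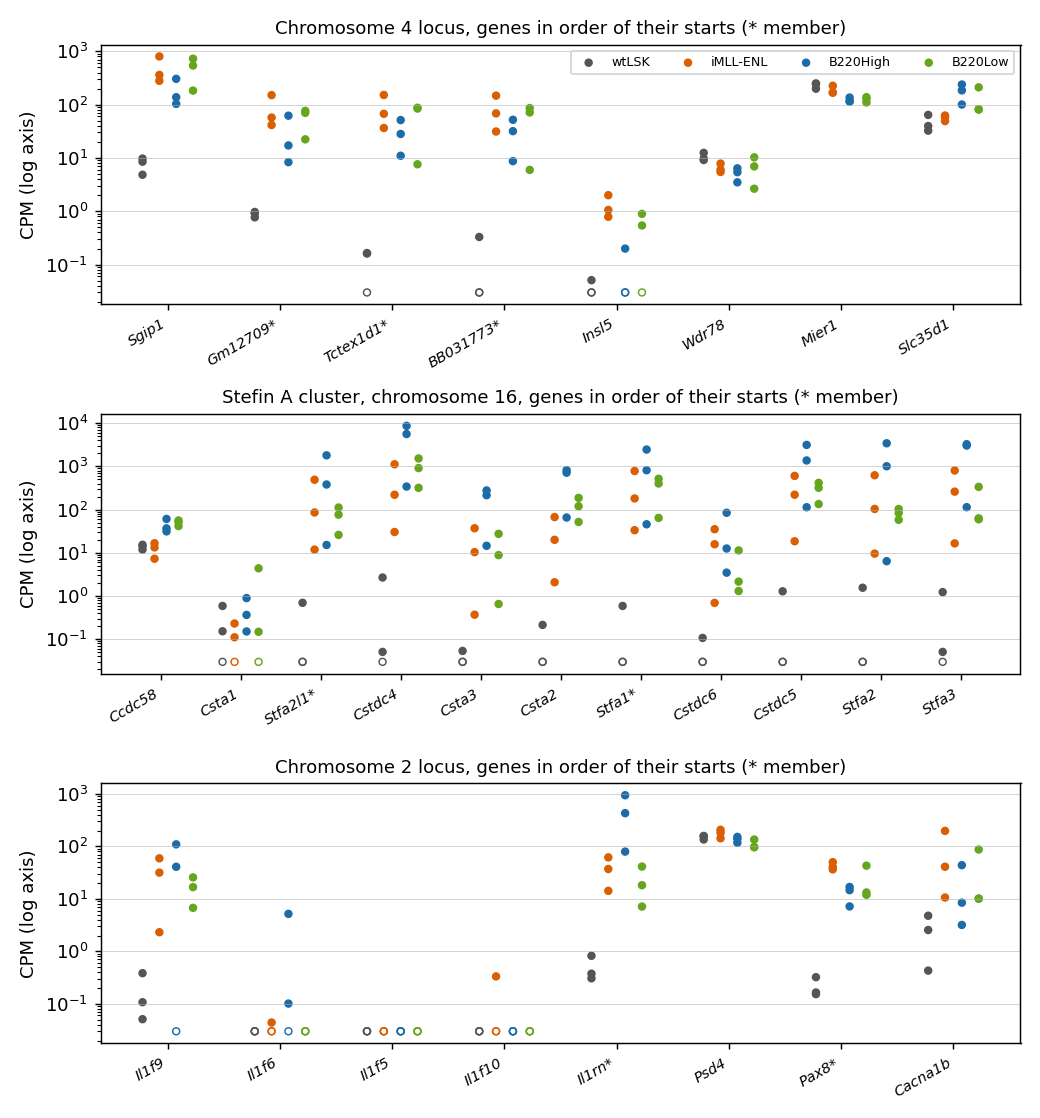
CPM (log axes, open circles for 0 counts) of measured genes in their order along 3 loci, with 1 point per library coloured by group and an asterisk on members of the 20. In the stefin A cluster nearly all genes drawn between Csta1 and Stfa3 share the pattern of Stfa1. Gm6815, measured between Cstdc4 and Csta3, is not drawn and stood at 0 to 7.3 CPM in the leukemic libraries. Psd4, between Il1rn and Pax8 on chromosome 2, stands at 96 to 207 CPM in the leukemic and up to 158 CPM in the wtLSK libraries.

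Tctex1d1, BB031773 and Gm12709 form one locus on chromosome 4. Tctex1d1 (102978703 to 103005594) encodes a protein of the dynein light chain Tctex family, and BB031773 (103004106 to 103011965) and Gm12709 (102967266 to 102989755) are long noncoding RNAs. Tctex1d1 stood at 0.161, 0.165 and 0 CPM in wtLSK, 36.4, 152 and 67.3 in iMLL-ENL, 10.99, 51.3 and 28.2 in B220High and 7.60, 84.2 and 87.3 in B220Low. BB031773 followed it closely, at 0.785 to 1.13 times its level in all 9 leukemic libraries. Gm12709 ranged from 0.609 to 2.94 times Tctex1d1. For all 3 genes the iMLL-ENL library 2 was the highest of the 9, and none was called between the sorts (log2 differences of -0.96, -0.79 and -0.90 for Tctex1d1, BB031773 and Gm12709, SE 0.88, 0.95 and 0.76).

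These genes overlap. Gm12709 shares 11053 bases with Tctex1d1 and 10161 with Sgip1, and BB031773 shares 1489 with Tctex1d1. The kit did not keep strand, so reads in shared exons cannot be assigned, and the 3 genes are not 3 independent measurements. Sgip1, which encodes an endocytic adaptor protein, was the most abundant of the locus, at 7.69 ± 2.55 CPM in wtLSK and 480.1 ± 281 in iMLL-ENL (SD, n = 3; log2 change 6.13, SE 0.50, edgeR adjusted p = 0.000112). It was lower in B220High with the replicate block (log2 change -1.31, adjusted p = 0.0442), whereas the fit without the block called no gene.

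Penk encodes proenkephalin, the precursor of the enkephalin opioid peptides (chromosome 4, 4133536 to 4138815). It stood at 0.322, 0.329 and 0.0510 CPM in wtLSK, 58.5, 559 and 362 in iMLL-ENL, 15.2, 915 and 424 in B220High and 65.5, 246 and 677 in B220Low. Library 1 was the lowest in each leukemic group. The other opioid precursor genes were near 0: Pdyn had 0 counts in all 12 libraries, Pnoc did not pass 0.768 CPM and Pomc did not pass 2.52. Among the receptors, Oprm1 rose from 5.78 ± 0.883 CPM to 13.9 ± 4.50 in iMLL-ENL (SD, n = 3; log2 change 1.43, SE 0.37, edgeR adjusted p = 0.0203) and stood at 0.0744 to 2.19 CPM in the sorted libraries. That call was lost without any one of the wtLSK libraries (adjusted p from 0.0635 to 0.0983) and without iMLL-ENL replicate 3 (0.0662).

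Pax8 encodes a paired box transcription factor of thyroid and kidney development (chromosome 2, 24420551 to 24475599). It stood at 0.322, 0.165 and 0.153 CPM in wtLSK, 50.1, 36.5 and 40.6 in iMLL-ENL, 14.6, 16.9 and 7.18 in B220High and 43.0, 13.2 and 11.97 in B220Low. The sorts overlapped (log2 difference -0.73, SE 0.60, edgeR adjusted p = 0.882). Of the 8 other Pax genes, none passed 4.33 CPM in any library, and Pax7 had 0 counts throughout. Tshr, the thyrotropin receptor gene, went from 0.107, 0 and 0 CPM in wtLSK to 26.2, 152 and 59.0 in iMLL-ENL (edgeR adjusted p = 0.000298) but stood at 0, 35.7 and 0 CPM in B220High and 1.05, 10.9 and 0.301 in B220Low, and so was not among the 20. Tg, which encodes thyroglobulin, stood at 3.48, 9.94 and 9.47 CPM in iMLL-ENL. The thyroid factor Nkx2-1 had 0 counts in all libraries, and Slc5a5, the iodide transporter gene, stood at 2.53 to 8.77 CPM in B220Low and at most 0.185 CPM in the other groups.

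Celsr3 encodes an atypical cadherin known for axon guidance (chromosome 9, 108826023 to 108852969). It stood at 0.752, 0.110 and 0.714 CPM in wtLSK, 54.3, 44.2 and 58.7 in iMLL-ENL, 18.2, 25.01 and 15.02 in B220High and 26.5, 42.6 and 10.9 in B220Low. It was the only one of the 20 genes with every iMLL-ENL library above every sorted library, where 9.96% of the 8114 genes were. Its relatives did not share its profile: Celsr1 was not called (edgeR adjusted p = 0.755), and Celsr2 fell from 6.48 ± 2.29 CPM in wtLSK to 0.870 ± 0.607 in iMLL-ENL (SD, n = 3; log2 change -2.74, SE 0.66, edgeR adjusted p = 0.0141), a call lost without wtLSK replicate 1 (0.0558) or 3 (0.0711).

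Rnd1 encodes a small GTPase that loosens actin fibres and cell adhesion (chromosome 15, 98669205 to 98677461). It had the most even levels of the 20 genes: 19.0, 28.4 and 22.6 CPM in iMLL-ENL, 9.43, 9.47 and 8.65 in B220High and 13.9, 23.7 and 20.1 in B220Low, with 0.161, 0.549 and 0.408 in wtLSK. B220High lay below the other leukemic groups without overlap, yet the difference between the sorts missed the threshold (log2 change -1.04, SE 0.49, edgeR adjusted p = 0.744; -0.99, SE 0.50 and adjusted p = 0.470 with the block).

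Tns4 encodes a short tensin that binds integrin tails at focal adhesions (chromosome 11, 99065678 to 99089306). It stood at 0.644, 0.878 and 0.255 CPM in wtLSK, 35.7, 43.9 and 34.0 in iMLL-ENL, 85.9, 12.3 and 46.2 in B220High and 91.9, 60.7 and 32.9 in B220Low. Tns1, a longer tensin, went the opposite way, from 202 ± 9.73 CPM in wtLSK to 12.2 ± 7.68 in iMLL-ENL (SD, n = 3; log2 change -3.90, SE 0.47, edgeR adjusted p = 0.000670). Plekhh2, which encodes a cytoskeletal protein known from kidney podocytes (chromosome 17, 84511895 to 84622143), was lower in level: 0.107, 0.219 and 0 CPM in wtLSK, 17.7, 7.83 and 13.7 in iMLL-ENL, 58.6, 13.8 and 21.4 in B220High and 27.0, 13.2 and 11.7 in B220Low. Neither gene differed between the sorts beyond the spread of the libraries (log2 differences of -0.33 for Tns4, SE 0.60, and 0.87 for Plekhh2, SE 0.57).

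Dnmt3l encodes a catalytically inactive partner of the enzymes that set new DNA methylation, known from germ cells (chromosome 10, 78042287 to 78063622). It had 0, 0 and 3 counts in wtLSK, the last equal to 0.153 CPM. Its levels were 7.32, 14.0 and 10.3 CPM in iMLL-ENL, 18.9, 61.8 and 44.2 in B220High and 17.9, 58.7 and 69.0 in B220Low. It was the only one of the 20 with every iMLL-ENL library below every sorted library, where 14.8% of the 8114 genes were. These libraries stand in different deposited tables, and the difference was not tested. The sorts themselves overlapped (log2 difference -0.18, SE 0.61, edgeR adjusted p = 0.980).

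Genes of the enzymes that Dnmt3l assists were lower in iMLL-ENL than in wtLSK. Dnmt3b fell from 146 ± 9.22 CPM in wtLSK to 16.5 ± 0.880 in iMLL-ENL (SD, n = 3; log2 change -2.99, SE 0.20, edgeR adjusted p = 4.21e-05). Dnmt3a fell from 225 ± 16.3 to 77.9 ± 48.1 CPM (log2 change -1.39, SE 0.39, edgeR adjusted p = 0.0261), a call lost without any one of the wtLSK libraries or without iMLL-ENL replicate 3 (adjusted p from 0.0517 to 0.0813). Dnmt1, the maintenance methyltransferase gene, was not called (edgeR adjusted p = 0.743). Dnmt3l shares 1324 bases with Aire on the annotation, so without strand its reads are uncertain in that stretch.

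Aff2 encodes a nuclear protein of the AF4/FMR2 family, whose members AFF1 and AFF4 work with ENL in transcription elongation complexes (chromosome X, 69360190 to 69872054). It stood at 0.269, 0.219 and 0 CPM in wtLSK, 56.7, 148 and 56.5 in iMLL-ENL, 15.3, 127 and 25.9 in B220High and 33.6, 74.6 and 23.5 in B220Low. Library 2 was the highest in each leukemic group, and the sorts overlapped (log2 difference 0.42, SE 0.79, edgeR adjusted p = 0.963). Aff3 showed the reverse: it fell from 687 ± 56.4 CPM in wtLSK to 5.89 ± 4.70 in iMLL-ENL (SD, n = 3; log2 change -6.73, SE 0.60, edgeR adjusted p = 0.000190). Aff1 rose from 236 ± 18.1 to 439 ± 67.4 CPM (log2 change 1.05, SE 0.19, adjusted p = 0.00407) and Aff4 fell from 355 ± 8.63 to 156 ± 42.9 CPM (log2 change -1.03, SE 0.23, adjusted p = 0.0112). The list of this family and those of the other relatives named here were drawn up after the 20 genes were known.

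**Figure D5:**
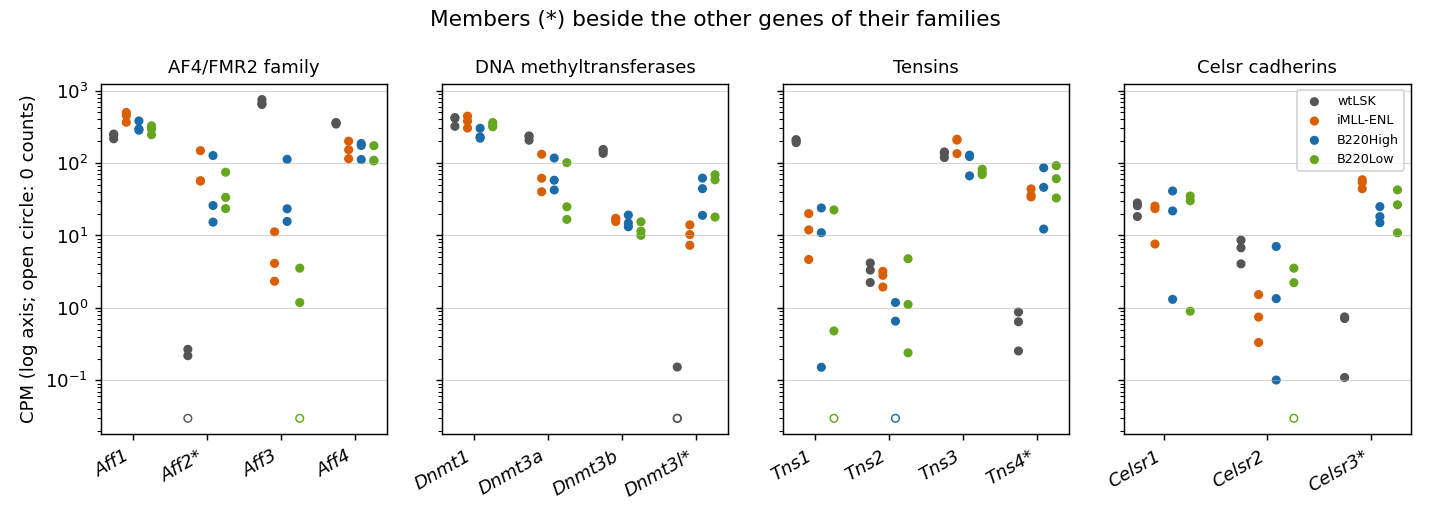
CPM (log axis, open circles for 0 counts) of 4 members of the 20 (asterisks) beside the other genes of their families, with 1 point per library coloured by group. Aff2 and Dnmt3l are the genes at the bottom of their panels in wtLSK, where Aff3 stands at 643 to 751 CPM and Dnmt3b at 136 to 154 CPM.

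BC018473 is a long noncoding RNA on chromosome 11 (116752167 to 116757883) and had one of the widest gaps between normal and leukemic libraries. It had 1, 2 and 0 counts in wtLSK and stood at 132, 214 and 298 CPM in iMLL-ENL, 48.2, 230.3 and 60.2 in B220High and 61.6, 94.7 and 186 in B220Low. The ratio of its summed iMLL-ENL to its summed wtLSK counts, scaled by the library totals, was 4069, with a 95% exact counting interval of 1392 to 19730 that covers counting error only. The same ratio was 195 (66.3 to 946) for Dnmt3l, 1560 (872 to 3127) for Stfa1 and 34.5 (24.8 to 49.4) for Gpnmb. D630023F18Rik, on chromosome 1 (65105284 to 65123351), was the lowest of the 20 by its median, at 7.04, 11.4 and 17.7 CPM in iMLL-ENL, 17.03, 7.12 and 16.1 in B220High and 7.40, 5.43 and 38.7 in B220Low, with 0.269, 0.604 and 0 in wtLSK. Aff2, Celsr3, Pax8, Plekhh2 and D630023F18Rik each overlap an annotated gene that the tables do not list, and their reads are uncertain where they do.

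The leukemic libraries fell into an order by replicate number for many of the 20 genes. In 10 of 20 (50%) the same number was lowest in all 3 leukemic groups, against 20.0% of the 8114 genes, and in each of these 10 it was number 1: Stfa1, Penk, BC018473, Ccr1, Stfa2l1, Gm12709, BB031773, Tctex1d1, Il1rn and Dnmt3l. Reads may be shared among Tctex1d1, BB031773 and Gm12709 and between Stfa1 and Stfa2l1, so these 10 are not separate counts, and the difference from 20.0% was not tested. In 6 of 20 (30%) the same number was highest in all 3 groups, against 23.6%, with number 2 highest for Stfa1, Gm12709, Aff2 and Rnd1 and number 1 for Cd300ld and Plekhh2. The 20 genes summed to 818, 3131 and 1836 CPM in iMLL-ENL, 1061, 7587 and 5336 in B220High and 630.2, 1588 and 2041 in B220Low. In these sums the libraries numbered 1 were the lowest of each group and B220High was above B220Low at each number. Genes with high levels weigh most in a sum. The median of the 20 genes was 18.6, 63.5 and 45.2 CPM in B220High and 26.3, 59.7 and 46.2 in B220Low. By the median, B220High was thus above B220Low at number 2 alone. Whether a number marks an animal is not stated in the labels. Mature neutrophil genes were also lowest in the libraries numbered 1, at 752 CPM in sum in iMLL-ENL against 6889 and 5777. In B220High they stood at 335 against 13410 and 4389, and in B220Low at 681 against 1785 and 3266. The same held for monocyte and macrophage genes, at 3098 CPM in iMLL-ENL against 4135 and 10730. These stood at 1098 in B220High against 3476 and 5809, and at 653 in B220Low against 908 and 1271. Sums of primary granule and of B lineage genes were likewise lowest in number 1 of each leukemic group. The sums of the other marker lists did not have this order in every leukemic group. Stem and progenitor genes were highest in number 1 of iMLL-ENL (522 CPM against 292 and 288) and of B220Low (309 against 247 and 193). In B220High they stood at 463 against 515 and 447. The part of any of these cells in this order was not tested.

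Within 200 kb of a member, 154 other genes were measured and 98 tested, of which 32 were called higher and 8 lower, where 15.5% and 15.1% of all 13811 genes were. The 32 include 6 stefin and 4 Cd300 genes, which are clustered copies of members, and Sgip1, which shares bases with Gm12709. They are not independent of one another, and the difference from all genes was not tested. Some neighbours went the other way: Tmem176b and Tmem176a beside Gpnmb, Plag1 beside Penk and Rab37 near Cd300ld were called lower. Of the 20 genes, 7 had another member within that distance. Il1rn and Pax8 were such a pair, 69059 bases apart, but their levels were not tied, with Il1rn at 0.166 to 131 times Pax8 in the 9 leukemic libraries. Psd4, which lies between them, was not called (edgeR adjusted p = 0.156).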

How the data were processed

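RNA from 12 libraries of mouse bone marrow was isolated with the Pico Pure kit and made into unstranded NuGen Ovation libraries, per the labels' protocols. The authors deposited raw counts of reads per gene in 2 tables, one with wtLSK and iMLL-ENL and one with the B220 sorts, and a normalized signal (CPM) beside them. That deposited signal is the count divided by an effective library size, a relation that was checked on every gene. A deposited column of each gene's width in bases (unit: other) was used for levels per kilobase. The submitters' processing notes name edgeR, GRCm38 and mm10, and no aligner or counter was found in the sources used here. Gene symbols and positions came from RefSeq GRCm38.p6, which matched 23968 of 24028 gene IDs, and all 20 genes had a symbol. Transcript identity used GENCODE sequences of the same build.

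The 20 genes and the lists were chosen with earlier results of these data known. Comparisons were fitted within each table with edgeR 4.0.16 in R 4.3.3 (quasi-likelihood test with robust dispersions, TMM, filterByExpr with a minimum count of 10, two-sided p, Benjamini-Hochberg over all genes tested, calls at an adjusted p under 0.05), with DESeq2 1.42.0 and limma 3.58.1 as alternatives. On simulated counts for the sorts, the test on 12564 genes recovered 50% of the changes set at 8-fold, 35.8% at 4-fold and 4.48% at 2-fold, and 2 of 62 calls were false. For iMLL-ENL against wtLSK, with 13811 genes, these shares were 75.8%, 55.2% and 5.97%, and 8 of 99 calls were false. The simulated counts held no deviation shared by replicate number, and only the fit without the block was run on them. They thus do not describe the fit with the block. Same-numbered B220High and B220Low libraries deviated from their group means together (correlations across genes of 0.397, 0.198 and 0.307), so the numbers were taken to pair them; this comes from the data, not from the labels. The numbers of wtLSK and iMLL-ENL did not pair (0.0164, 0.16 and -0.0363). Named were all 20 genes, those just outside each limit and granule genes; other genes were chosen after their values were seen. Alternative limits, scalings, filters, tests and left-out libraries were tried.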

Additional observations from a re-analysis of the deposited data

How the results depend on the processing

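The number of genes that met the rule depended on its limits: 9 with a wtLSK limit of 0.5 CPM, 37 with 2 CPM, 42 with a leukemic limit of 2 CPM, 9 with 10 CPM and 98 with limits on group means. Under CPM over the TMM effective size, or the deposited CPM, it was 22, which included all 20. Leaving out 1 library gave 20 to 39. Between B220High and B220Low, leaving out 1 library gave 0 to 96 calls over all genes and 0 to 2 among the 20, against 0 in each case with all libraries. The gain came without B220High replicate 1, with 96 calls, among them Gpnmb and Il1rn, and 3 calls were made without B220Low replicate 1. No filter on low counts gave 22 calls (0 of the 20), DESeq2 232 (3 of the 20) and the replicate block 79 (2 of the 20). The block changed no other call among the 20. In iMLL-ENL against wtLSK, 4221 genes were called, 2636 to 4528 with 1 library left out and 4048 with the replicate block, whose numbers do not pair there. The block ended the calls of Stfa2, Stfa3, Cstdc4 and Cstdc5 (adjusted p from 0.103 to 0.149), and limma-voom (0.113 to 0.18) and no filter on low counts (0.0570 to 0.0887) ended them as well. The higher share of these calls was 50.6%, and 40.8% when scaled by library totals.

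Of the alternative values for the 20 genes between the sorts, 213 kept direction and call, 7 gained a call (Gpnmb, Il1rn, Cd300ld) and 20 in 7 genes changed sign. The first value below is with libraries left out, as a range, followed by other settings that changed the sign. Penk was at -0.47 to 1.67 (-0.01 without B220Low replicate 1), -0.11 (limma-voom) and -0.27 (block). BC018473 was at -1.04 to 0.66 (-0.32 and -0.11 without B220Low replicates 1 and 2), -0.01 (library totals), -0.12 (limma-voom) and -0.20 (block). Aff2 was at -1.01 to 1.08 and -0.01 (block), Tns4 at -0.91 to 0.14 and Celsr3 at -0.73 to 0.16. Dnmt3l was at -0.60 to 0.24 (0.19 without B220High replicate 1) and 0.04 (limma-voom), and D630023F18Rik at -0.80 to 1.18, 0.07 (limma-voom) and 0.16 (block). These 7 genes were not called under any setting run, and the cause was not tested.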
